A study of Arabidopsis thaliana with 8 samples.

Results

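The 6 genes described here belong to the plastid genome of Arabidopsis thaliana. Of these, rpoA, rpoB, rpoC1 and rpoC2 encode the core subunits of the plastid RNA polymerase, and rps19 and rpl33 encode proteins of the plastid ribosome. They were picked by name from 63 plastid-genome genes that have a probe set of their own on the array, among 16554 genes of the whole array that have one. Each of the 6 had 1 probe set naming it alone, so no choice among probe sets was needed. The choice was made with the difference between the genotypes already known. That difference is therefore given for the 6 genes as a description with its standard error (SE), without a test. Leaf RNA of 3-week-old Col-0 plants was hybridised to 8 Affymetrix arrays of 1 colour. The labels give 4 arrays as wild type and 4 as fbn5-1, a mutant with T-DNA inserted in FBN5, which encodes a plastid fibrillin. Untreated plants of both genotypes were kept on 0.5x MS medium with 1% sucrose, at 60% humidity and 25 °C, under days of 16 h light and nights of 8 h. The mutant is represented by a single insertion line, and the labels do not say whether replicates came from separate plants or pools, so the p-values below measure spread among these arrays only, and that spread may be technical.

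Plastids keep a small genome and transcribe it with 2 kinds of enzyme. The plastid-encoded polymerase resembles that of bacteria: its alpha, beta, beta-prime and beta-double-prime subunits come from rpoA, rpoB, rpoC1 and rpoC2, and nuclear sigma factors direct it to promoters, mostly of photosynthesis genes. A nucleus-encoded, phage-type polymerase transcribes housekeeping genes, among them the rpoB, rpoC1 and rpoC2 genes, which are transcribed together. Plastid ribosomes translate all plastid mRNAs and mix plastid-encoded proteins such as S19 and L33 with nuclear ones.

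Values are log2 signals as deposited, and every difference is the mean of the arrays labelled fbn5-1 minus the mean of those labelled wild type. The FBN5 probe set was at 3.54, 3.35, 3.43 and 5.15 on wild type arrays 1 to 4 and at 4.71, 4.52, 4.76 and 4.58 on those labelled fbn5-1. Its difference was 0.78 (SE 0.36, limma adjusted p = 0.173). Without wild type array 4, an alternative chosen after seeing the data, it was 1.20 (limma adjusted p = 0.000524). Over all arrays the mean was higher under the mutant label, but FBN5 was not called at an adjusted p under 0.05. FBN5 was also weak. Apart from array 4, its wild type values lay near the median over all probe sets, 3.42 to 3.49 on the arrays. The position of its probes with respect to the T-DNA is not given, and every direction below rests on the labels. Wild type array 4 stood apart. Over all tested probe sets its Pearson r with the other wild type arrays was 0.929 to 0.933, against 0.985 to 0.988 among those, and its deviations from the wild type mean had an SD of 0.471, against 0.177 to 0.238 on the other 7 arrays. Of 17 leaf mesophyll markers, 5 had a probe set of their own, and all 5 lay above the filter value used to select tested probe sets (log2 2.79). The numbers of arrays limit the precision of every value.

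Transcripts of all 6 genes had a higher mean on the arrays labelled fbn5-1, by 0.19 to 0.74 on the log2 scale, with a median of 0.43. The median difference over all 17147 tested probe sets was -0.015, and over the 57 other plastid-genome genes it was 0.09. For rpoA, rpoB, rpoC2 and rps19, every array labelled fbn5-1 lay above every wild type array; rpoC1 and rpl33 did not meet that. Over the array, 11.7% of tested probe sets had all 4 arrays labelled fbn5-1 above the 4 of wild type. As the genes were picked on this contrast, the 4 of 6 describe the choice. In bulk leaf RNA, more of the cells or plastids that hold a transcript and more of it in each cannot be told apart.

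**Figure D1:**
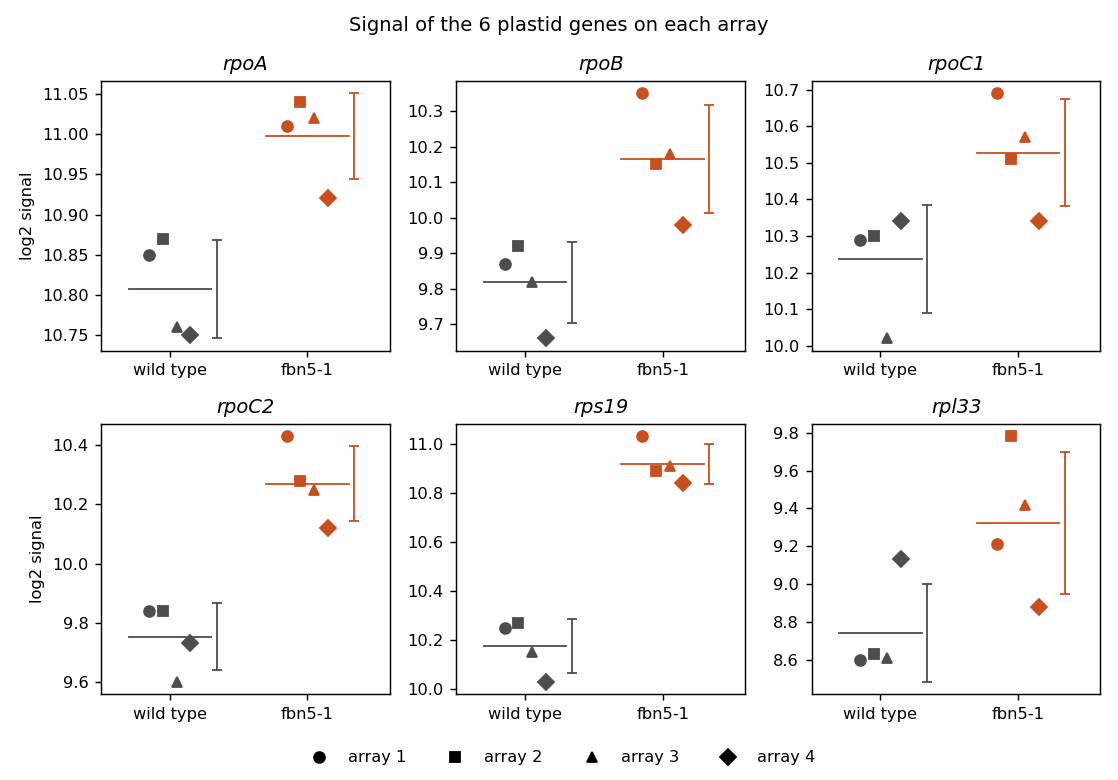
Log2 signal of rpoA, rpoB, rpoC1, rpoC2, rps19 and rpl33 on each of the 8 arrays, with 1 symbol per array number, the group mean as a line and the SD (n = 4) as a bar beside it; each panel has its own scale, which does not start at 0. The groups are apart in rps19, rpoC2, rpoA and rpoB, touch in rpoC1 and overlap in rpl33, where wild type array 4 is at 9.13.

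The polymerase subunit genes differed in size of difference. rpoA, whose alpha subunit dimer is the scaffold on which the core enzyme assembles, was at 10.85, 10.87, 10.76 and 10.75 on wild type arrays 1 to 4. On the arrays labelled fbn5-1 it was at 11.01, 11.04, 11.02 and 10.92. The groups were apart by 0.05, and the difference of 0.19 (SE 0.05), a ratio of 1.14, was the lowest among the 6 genes. Its spread was also the narrowest, with an SD of 0.06 in wild type and 0.05 in fbn5-1 (n = 4).

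rpoB, which encodes the beta subunit, part of the catalytic centre, was at 9.87, 9.92, 9.82 and 9.66 in wild type. In fbn5-1 it was at 10.35, 10.15, 10.18 and 9.98. The lowest array labelled fbn5-1, array 4, was 0.06 above the highest wild type array, and the difference was 0.35 (SE 0.09), a ratio of 1.27.

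rpoC1, for the beta-prime subunit, was at 10.29, 10.3, 10.02 and 10.34 in wild type and at 10.69, 10.51, 10.57 and 10.34 in fbn5-1. Here the groups touched, since wild type array 4 and fbn5-1 array 4 had the same value. Wild type array 3 was low, and without it the difference of 0.29 (SE 0.09) became 0.22 (SE 0.08). The ratio over all arrays was 1.22.

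rpoC2, for the beta-double-prime subunit, was at 9.84, 9.84, 9.6 and 9.73 in wild type and at 10.43, 10.28, 10.25 and 10.12 in fbn5-1. All arrays labelled fbn5-1 were higher than all wild type arrays, with a gap of 0.28. The difference was 0.52 (SE 0.08), a ratio of 1.43.

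Over the 8 arrays the 2 ribosomal genes had larger differences than the 4 polymerase genes, but with unlike spread. For rpl33 this order did not hold on leaving out some single arrays. Without fbn5-1 array 2 it was at 0.43, against 0.51 for rpoC2. Without wild type array 1 it was at 0.53 and without wild type array 2 at 0.54, against 0.55 for rpoC2 in both. rps19 encodes S19, a protein of the head of the small ribosomal subunit. Its signal was 10.25, 10.27, 10.15 and 10.03 in wild type and 11.03, 10.89, 10.91 and 10.84 in fbn5-1, with a gap of 0.57 between the groups. The difference of 0.74 (SE 0.07), a ratio of 1.67, was the highest of the 63 plastid-genome genes over the 8 arrays. It lay between 0.69 and 0.77 when single arrays were left out, and without wild type array 4 it was 0.69, below the 0.71 of rpl33.

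rpl33 encodes L33, a small protein of the large subunit that in tobacco is dispensable except under cold. It was at 8.6, 8.63, 8.61 and 9.13 in wild type and at 9.21, 9.78, 9.42 and 8.88 in fbn5-1. Wild type array 4 stood 0.5 above the next wild type array and was higher than fbn5-1 array 4, so the groups overlapped. The difference was 0.58 (SE 0.19), a ratio of 1.49. It was 0.71 (SE 0.17) without wild type array 4, 0.73 without fbn5-1 array 4 and 0.43 without fbn5-1 array 2. The SD of rpl33 was 0.26 in wild type and 0.38 in fbn5-1 (n = 4), the widest among the 6 genes.

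Ratios between genes on the same array show that the signals of the genes did not move equally. The log2 ratio of rpoC2 to rpoC1 was -0.45, -0.46, -0.42 and -0.61 on the wild type arrays and -0.26, -0.23, -0.32 and -0.22 on those labelled fbn5-1, without overlap. The ratio of rpoC2 to rpoB was -0.03, -0.08, -0.22 and 0.07 in wild type and 0.08, 0.13, 0.07 and 0.14 in fbn5-1, so its groups touched. The ratio of rpoC1 to rpoB lay between 0.2 and 0.68 in wild type and between 0.34 and 0.39 in fbn5-1. This pair thus overlapped, with fbn5-1 inside the wild type range. The ratio of rps19 to rpoA was -0.6, -0.6, -0.61 and -0.72 in wild type and 0.02, -0.15, -0.11 and -0.08 in fbn5-1. These ratios come from the contrast on which the genes were picked and are a description.

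In the median, the plastid-genome genes outside the 6 were slightly higher on the arrays labelled fbn5-1. So was the median over all probe sets, at 3.42 to 3.45 on the wild type arrays and 3.46 to 3.49 on those labelled fbn5-1. The median over the 57 other plastid-genome genes was 11.43 to 11.52 on the wild type arrays and 11.54 to 11.6 on the arrays labelled fbn5-1, a difference of 0.085 between the group means. Set against that median on each array, the 6 genes kept a positive difference: 0.11 for rpoA, 0.26 for rpoB, 0.21 for rpoC1, 0.43 for rpoC2, 0.66 for rps19 and 0.50 for rpl33. Thus rpoA had 0.11 of its 0.19 left, the largest relative loss among the 6. rpoA, rpoB, rpoC2 and rps19 were again without overlap. rpoC1 and rpl33 overlapped, rpoC1 with wild type array 4 at -1.18 and fbn5-1 array 4 at -1.2. The lowest array labelled fbn5-1 (array 4) and the highest wild type array (array 2) were at -0.62 and -0.63 for rpoA and at -1.56 and -1.58 for rpoB, so both were barely apart. On this measure 7.43% of all tested probe sets had the 4 arrays labelled fbn5-1 above the 4 of wild type.

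**Figure D2:**
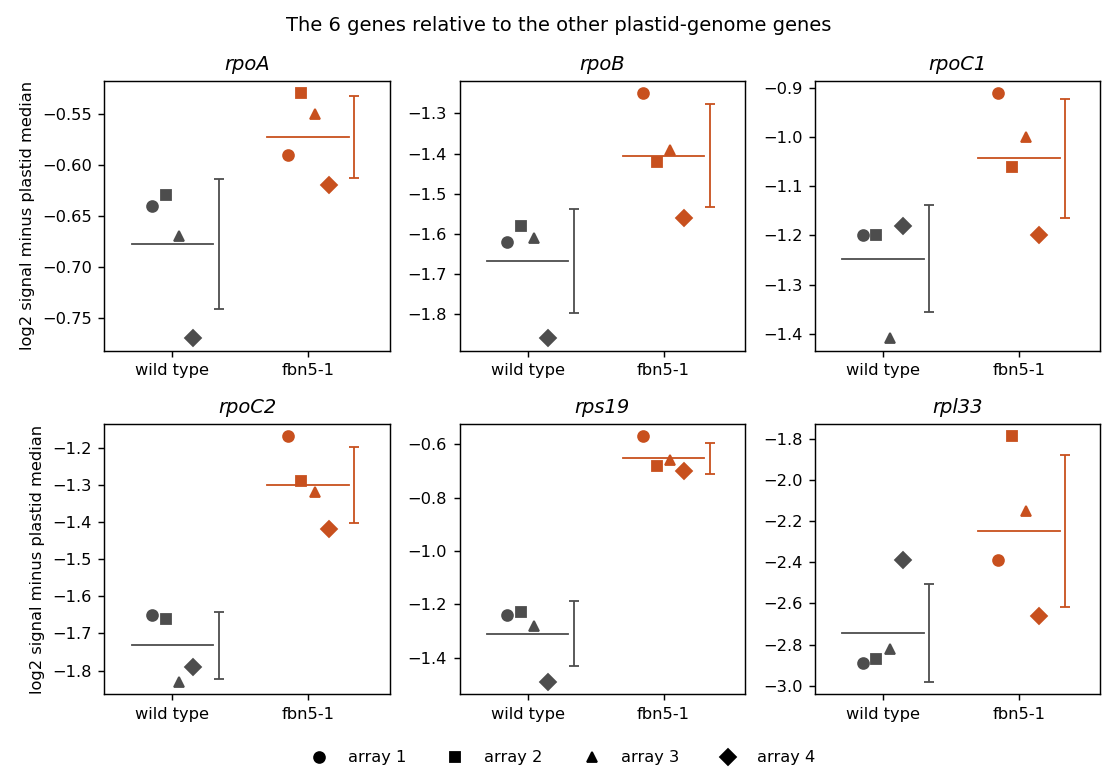
Log2 signal of each of the 6 genes minus the median of the 57 other plastid-genome genes on the same array, with array symbols, group means (lines) and SD (bars, n = 4); panels have their own scales. rps19 moves from -1.31 to -0.65 in the mean and rpoC2 from -1.73 to -1.30, while rpoC1 and rpl33 overlap.

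Within the groups, most of the genes deviated together from array to array. All 6 were lowest on array 4 among the arrays labelled fbn5-1, both in deposited signal and relative to the other plastid genes. This was not particular to the 6. In deposited signal rps15, rpl32 and ndhG, among others, were also lowest on that array, while rps2 and rpl36 were not. On the wild type side, rpoA, rpoB and rps19 were lowest on array 4, rpoC1 and rpoC2 on array 3, and rpl33 and rpoC1 were highest on array 4. Over the 8 deviations from the group means, Pearson r was 0.93 between rpoB and rps19 and 0.89 between rpoC1 and rpoC2, and between 0.40 and 0.93 for the 10 pairs that leave out rpl33. For the 5 pairs with rpl33 it was between -0.35 (rps19) and 0.40 (rpoC1). These 8 points share arrays and scaling, so r only describes them.

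The gene order of the plastid genome puts 3 of the polymerase genes side by side, between atpI and rps2 on one end and petN on the other. rps2, a ribosomal protein gene next to rpoC2, rose in fbn5-1, from 10.4 to 10.8, by 0.39 (SE 0.06, limma adjusted p = 0.0036; higher on 4 of 4 arrays than on any wild type array). atpI, an ATP synthase subunit gene beyond rps2, had a difference of -0.05 (limma adjusted p = 0.538). petN, a cytochrome b6f subunit gene beyond rpoB, had one of 0.11 (limma adjusted p = 0.146). The differences of rps2, rpoC2, rpoC1 and rpoB, from 0.29 to 0.52, thus stood between atpI and petN, which were not called. The next gene beyond petN is psbM, a photosystem II subunit gene looked up after its values were seen. It rose by 0.61 (SE 0.13, limma adjusted p = 0.0154), more than any of these.

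rpl33 lies between psaJ, a photosystem I subunit gene, and the ribosomal gene rps18, followed by rpl20. rps18 rose by 0.36 (SE 0.10, limma adjusted p = 0.0345), with wild type array 4 at 10.28 and fbn5-1 array 4 at 10.27, so that its groups overlapped as those of rpl33 did. psaJ had a difference of 0.13 (limma adjusted p = 0.0844) and rpl20 of -0.02 (limma adjusted p = 0.798). The call of rps18 held without wild type array 4 and without fbn5-1 array 4, and it ended without each other array, with a limma adjusted p of up to 0.0891. psaJ was called without wild type array 4 (0.17, limma adjusted p = 0.027).

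rpoA and rps19 lie in the same stretch of the gene order, and the genes between them encode ribosomal proteins. Between them rpl36 rose by 0.48 (SE 0.09, limma adjusted p = 0.00983) and rpl14 by 0.17 (SE 0.04, limma adjusted p = 0.0223), while rpl16 had a difference of 0.10 (limma adjusted p = 0.254). Other genes between them were not analysed here. Among the analysed genes the differences did not follow the order along this stretch, with 0.19 for rpoA and then 0.48 for rpl36, 0.17 for rpl14, 0.10 for rpl16 and 0.74 for rps19. petD, a cytochrome b6f gene on the other side of rpoA, rose by 0.13 (SE 0.03, limma adjusted p = 0.0285). The call of rpl14 ended when wild type array 1, 2 or 3 or fbn5-1 array 3 was left out, with a limma adjusted p of up to 0.0629; that of petD ended on leaving out any array but the fourth of each genotype (limma adjusted p of up to 0.0755).

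**Figure D3:**
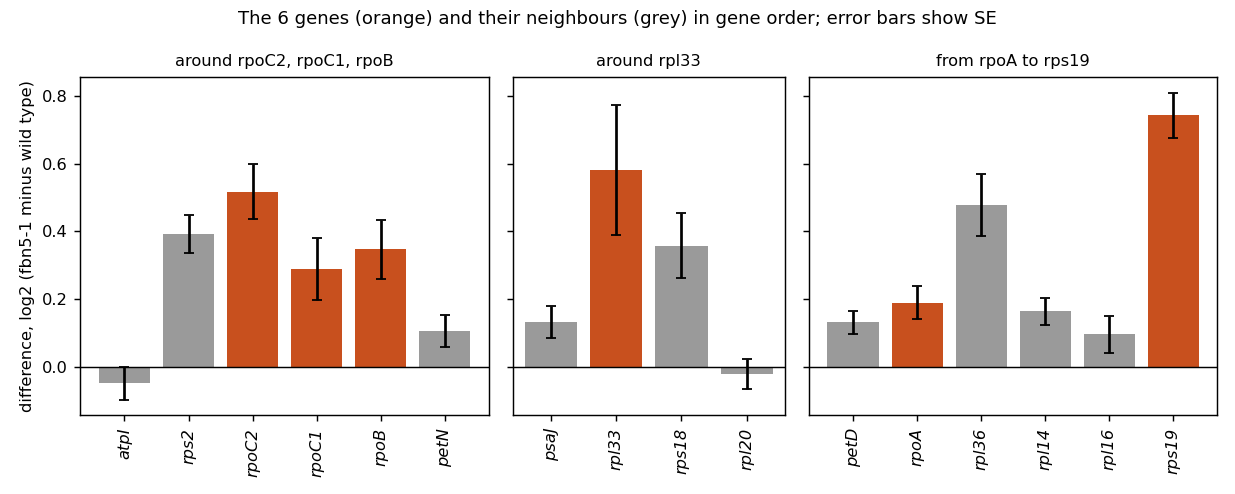
Difference in log2 signal (fbn5-1 minus wild type) with its SE for the 6 genes (orange) and their neighbours (grey), in the order of the plastid genome, without distances and with only the analysed genes shown. rps2, rps18 and rpl36 lie at 0.36 to 0.48, between or beside the 6 genes, while atpI and rpl20 lie below 0.

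Beyond the 2 picked genes, 19 plastid genes for ribosomal proteins were listed, of which 11 had a probe set of their own and were tested. Of these 11, 6 rose in fbn5-1, 0 fell and 5 were not called, with a median of 0.17; 8.22% of all tested probe sets were called higher and 8.55% lower. The 6 were rps15, rps2, rpl36, rps18, rpl32 and rpl14, with rps15, at the lowest adjusted p, up by 0.40 (SE 0.05, limma adjusted p = 0.00299) and rpl32 up by 0.21 (SE 0.05, limma adjusted p = 0.0199). rps16, rps14, rps4, rpl16 and rpl20 had differences between -0.02 and 0.16. Leaving out wild type array 1 or 2 made the 6 calls 3. The call of rpl32 ended without these arrays and without fbn5-1 array 1 (limma adjusted p of up to 0.0571). Earlier results on these arrays were known when the list was drawn up, so the count is not independent of the choice of the 6 genes.

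Of 5 other plastid genes outside photosynthesis, 3 had a probe set of their own, and 2 of them rose. accD, a subunit of the acetyl-CoA carboxylase of fatty acid synthesis and known to be transcribed by the phage-type polymerase, rose from 10.97 to 11.23, by 0.26 (SE 0.04, limma adjusted p = 0.00685). matK, an intron maturase, rose by 0.18 (SE 0.04, limma adjusted p = 0.02), a call that ended without wild type array 3 or fbn5-1 array 1. clpP, a protease subunit, had a difference of 0.02 (limma adjusted p = 0.726). ycf1 and ycf2 were not analysed here.

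Over the whole of the 57 other plastid-genome genes, 18 rose, 1 fell and 38 were not called. Other scalings changed this balance, to 9 higher and 5 lower with quantile normalization and 10 higher and 2 lower with median centring. Called higher were 31.6%, against 8.22% over the array, and in 21 of the 57 (36.8%) all arrays labelled fbn5-1 lay above all of wild type. The 19 calls fell to 10 when fbn5-1 array 1 or any of wild type arrays 1 to 3 was removed, to 12 on removing fbn5-1 array 2 and to 11 on removing fbn5-1 array 3. By function, the median difference was 0.43 for the 6 genes, 0.18 for the 4 genes accD, clpP, matK and cemA, and 0.17 for the 11 other ribosomal genes. The single gene rbcL was at 0.03. The median was 0.13 for 10 genes of the NADH dehydrogenase-like complex, 0.11 for 7 of cytochrome b6f and cytochrome assembly, 0.00 for 20 photosystem genes and -0.01 for 4 of ATP synthase. Among single genes, rps19, rpl33 and rpoC2 ranked 1, 3 and 4 of 63 by difference, with rpoB at rank 10, rpoC1 at 12 and rpoA at 18. Rank 2 was psbM, a photosystem II subunit gene named after its values were seen, which rose by 0.61 (SE 0.13, limma adjusted p = 0.0154).

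**Figure D4:**
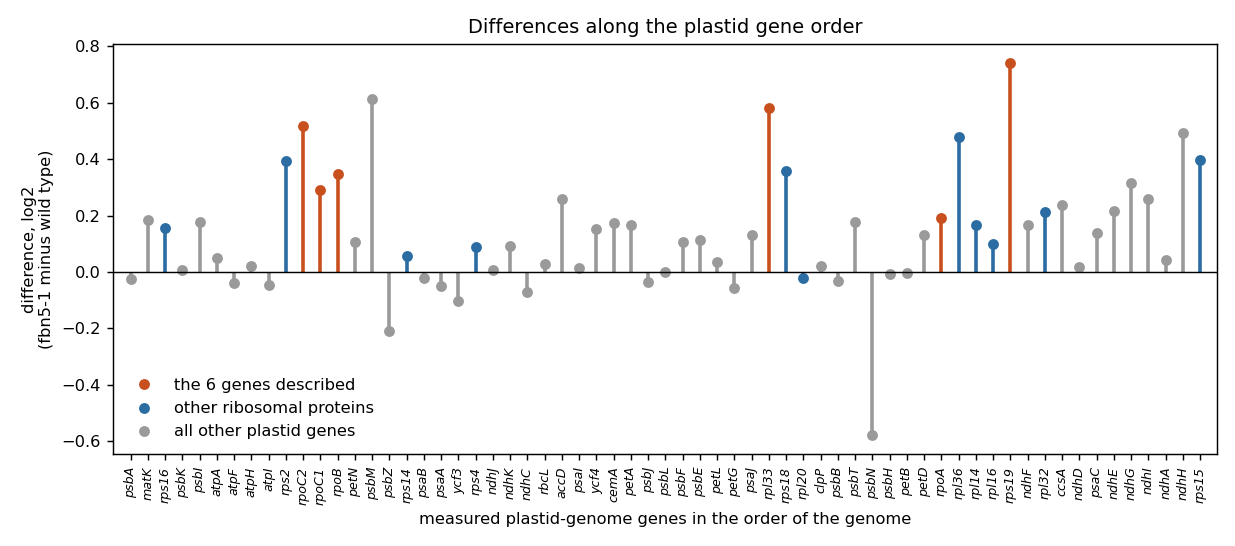
Difference in log2 signal (fbn5-1 minus wild type) of the 63 measured plastid-genome genes, placed in genome order at equal steps, with the 6 genes in orange, other ribosomal protein genes in blue and the rest in grey. The 6 genes lie between 0.19 and 0.74, in 3 places along the order. The grey genes between these places range from -0.58 (psbN) to 0.61 (psbM).

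Signal level moved with the difference among plastid genes. Over the 57 genes outside the 6, Pearson r between mean log2 signal and difference was -0.41 and Spearman rho -0.60, a description across genes that share arrays and are not independent. The 6 genes had means from 9.03 to 10.9. Of the 11 other plastid genes at or below 10.9, 7 rose, 0 fell and 4 were not called, with a median of 0.36. The 4 include psbN, a photosystem II assembly factor gene named after its values were seen, at -0.58 (limma adjusted p = 0.124). Of the 46 brighter ones, 11 rose, 1 fell and 34 were not called, with a median of 0.04. In the same range of signal over the whole array, 313 probe sets had a median difference of -0.01, of which 18.5% were called higher and 16.6% lower. These 313 include the 6 genes and other plastid genes, so they are not independent of them. The part of signal level in the differences of the 6 genes was not tested.

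**Figure D5:**
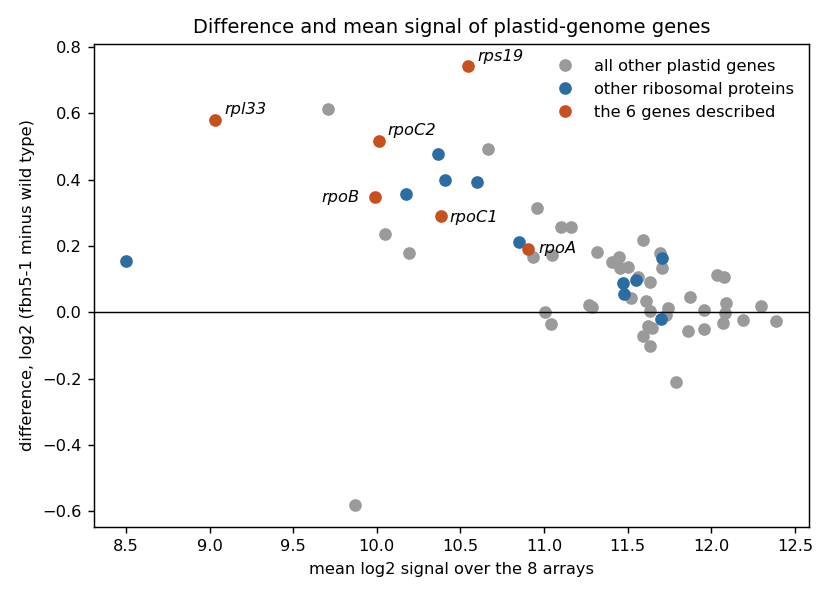
Difference in log2 signal (fbn5-1 minus wild type) against mean log2 signal over the 8 arrays for the 63 plastid-genome genes, with the 6 genes in orange and named, other ribosomal protein genes in blue and the rest in grey. Signals of different probe sets do not rank transcript amounts; the 6 genes lie at 9.03 to 10.9, and the 46 genes brighter than these have a median difference of 0.04.

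Nuclear partners of the polymerase and of the ribosome could not be set beside these genes. The probe annotation used here gives a probe set of its own to 16.4% of the nuclear protein-coding genes that have a symbol (1700 of 10374), against 85.8% of those known by a locus tag alone. The lists held 6 sigma factors, 12 polymerase-associated proteins, 23 other plastid nucleoid or transcription factors, 3 phage-type polymerases and 28 nuclear-encoded plastid ribosomal proteins. By name, 6, 12, 17, 1 and 23 of them were found in the reference gene table, and 0 had a probe set naming it alone, so these genes were not analysed here. Of 23 nuclear genes for plastid RNA processing and stability, OTP84 and OTP85 had one. OTP84, an RNA editing factor of plastids, had a difference of 0.31 (SE 0.14, limma adjusted p = 0.169), and OTP85 lay below the filter value, at 1.36 in wild type and 1.35 in fbn5-1. So 0 of 1 tested gene of that list was called by limma; at an unadjusted p of 0.0584, OTP84 did not pass 0.05 either.

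The mean profile of the 6 genes, each scaled to mean 0 and SD 1 over the 8 arrays, was compared with 8948 other tested genes. The most alike over the 8 arrays were AT3G05470, with a Pearson r of 0.984, PSF2, of the GINS complex of DNA replication, with 0.978, and AT3G60245, with 0.976. All 3 are nuclear, and their differences were 0.41, 0.39 and 0.90. Likeness to a profile of genes picked on the genotype contrast fixes such differences, so no test of them is given. Over the deviations from group means, which leave out the genotype difference, the most alike were AT3G13980, AT3G07170 and AT2G30930, with r of 0.964, 0.959 and 0.953. These 3 were not called between the genotypes (limma adjusted p = 0.359, 0.371 and 0.19). Likeness over 8 arrays that share scaling is a description.

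Markers of other cell types also moved with the labels. Of 7 meristem and dividing-cell markers, AUR1 and AUR2, Aurora kinases of mitosis, had a probe set of their own, and both rose. Their summed signal was 4.05 to 4.52 (log2) on the wild type arrays and 4.78 to 5.84 on those labelled fbn5-1. Both were weak, with means over the 8 arrays of 4.09 and 3.68, against 3.42 to 3.49 for the median over all probe sets. Of 5 vascular markers, SWEET11, a sucrose exporter of phloem loading, was the one measured, and it fell from 9.58 to 9.83 in wild type to 8.89 to 9.21 in fbn5-1. Of 5 pollen and flower markers, AGL104 was measured, and it fell from 3.87 to 5.22 in wild type to 2.52 to 2.87. In fbn5-1 it thus lay around the filter value of 2.79. Of 6 epidermal and guard cell markers, FAMA was measured and not called, and none of 7 root markers had a probe set of its own. Of the 5 measured mesophyll markers, PSAE-1 fell and 4 were not called, and their summed signal was 12.70 to 12.85 (log2) in wild type and 12.67 to 12.73 in fbn5-1. The part of cell makeup in the differences of the 6 genes was not tested.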

How the data were processed

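The authors deposited log2 signals, 1 value per probe set and array. The log base was taken from the range of values, MAS5 is the program named per the submitters' processing notes, and scaling and genome build are not given in the sources used here. The primer used to label the RNA is likewise not given. A matrix of 28583 probe sets was used; a series table of 38408 held identical values for those shared. A platform table named 1 gene for 16746 probe sets, of which 16601 were found in RefSeq's TAIR10.1 gene table, used for names and gene order only; it gives no strand, so neighbours were taken by order alone. No sequences are shown because none were among the files used here. Probe sets with a mean above the 40th percentile (17147) were tested with limma 3.58.1 in R 4.3.3 (lmFit, eBayes with trend), two-sided, with Benjamini-Hochberg adjustment over all of them, and called at an adjusted p under 0.05. The fit was tested on simulated data. The 6 genes and all gene lists were chosen with earlier results of these data known. The genes named are the 6, list genes with a tested probe set, neighbours in gene order, and the 3 genes most like the 6 by each measure. Alternatives were other scalings, 16 added to the linear signal, other filters, variance models, array weights, the series table, a replicate block and leaving out each array. Arrays with the same replicate number did not deviate together (r of -0.19 to 0.16), so numbers were not treated as pairs.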

Additional observations from a re-analysis of the deposited data

Results flagged for a closer look

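Among 48 groups of 4 arrays checked for the plastid genes named above, 5 held an array far from the other 3, and chance flags about 1 in 20 groups. Of the 6 genes, rpl33 was high on wild type array 4, at 9.13 against 8.63 on the next array, and rpoC1 was low on wild type array 3, at 10.02 against 10.29. Of their neighbours and the listed genes, rpl20 was at 11.76 on wild type array 3 against 11.7, accD at 11.19 on fbn5-1 array 3 against 11.24, and petD at 11.81 on fbn5-1 array 2 against 11.76.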

How the results depend on the processing

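The differences of rpoA, rpoB, rpoC1, rpoC2, rps19 and rpl33 stayed positive in all 21 alternatives, and their median lay between 0.35 (centred on the other plastid genes) and 0.49 (without fbn5-1 array 4). Averaging probe sets changed nothing, as each gene has 1. Other filters, variance models without array weights, the series table and the replicate block leave a difference of group means as it is. Leaving out 1 array could not change the sign either for rpoA, rpoB, rpoC2 and rps19, which had no overlap. Nor could it for rpoC1, whose groups only touched. So only part of the 21 alternatives could have changed a sign. Of 2876 probe sets called, array weights gave 4450 and the replicate block 1731, and leaving out single arrays gave 1738 to 3875. Of the other ribosomal genes, 6 were called; with a constant prior variance 3 were, under the replicate block 3, and on leaving out single arrays 3 to 6. The 19 other plastid genes called were 12 with median centring (10 higher, 2 lower), 14 with quantile normalization (9 higher, 5 lower), 6 with a constant prior variance, 8 under the replicate block, and 10 to 23 without single arrays. The replicate number gave no sign of pairing the arrays, and the block leaves fewer degrees of freedom. The block also ended the calls of rps18, petD, rpl14, rpl32 and matK (limma adjusted p of 0.0514 to 0.0867). A constant prior variance ended the calls of accD, rps18, rpl32, matK, rpl14 and petD (limma adjusted p of 0.0516 to 0.241). Median centring ended those of rps18, rpl14 and petD (0.0553, 0.0811 and 0.107), 75th percentile centring, no filter and the series table that of petD (0.0523, 0.0619 and 0.0517), and quantile normalization those of rpl14, petD and matK (0.267, 0.348 and 0.122), while atpI was then called lower (-0.16, limma adjusted p = 0.0499). Small differences that were not called changed sign: clpP (-0.0175 with median centring, -0.0722 with quantile normalization), rps14 (-0.0658) and rps4 (-0.0178) with quantile normalization, and rpl20 (0.0025 with 75th percentile centring, and -0.0533 to 0.0067 without single arrays). The cause was not tested. No alternative could be run for the nuclear partner lists, which had no tested member.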
